A study of Mus musculus with 2 samples.

Results

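DNA replication and S phase genes were examined as a module of 41 genes, taken by symbol from a fixed list of replication and G1/S genes. All 41 were found among the 55401 genes of both expression tables. The tables come from polyA-selected, stranded RNA sequencing of mouse pituitaries at embryonic day E12.5, with 1 library from Dyrk2 knockout embryos (Dyrk2-KO, given as Dyrk2-/- in the design) and 1 from wild-type embryos (WT). Dyrk2 encodes a protein kinase, and by its title the study asks what primary cilia do while the pituitary forms. The number and sex of the embryos behind each library and the structure of the knockout allele were not found among the labels. With 1 library per genotype no difference below has a replicate check, no p-value was computed, and every 95% interval covers counting error only.

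DNA is copied once per cell cycle. The origin recognition complex marks origins, Cdc6 and Cdt1 load the ring-shaped MCM helicase there in G1, and Cdc45, the GINS complex and Mcm10 turn the ring into a moving fork at which polymerases copy both strands. E2F transcription factors, released when cyclin-dependent kinases inactivate the retinoblastoma family, drive many of these genes at the entry into S phase, so their transcripts are widely used as a readout of cycling cells. Rathke's pouch, the epithelium that forms the anterior pituitary, consists mostly of dividing progenitors at this stage, while hormone-producing cells leave the cycle. In human cells DYRK2 is known to phosphorylate c-Jun and c-Myc and thereby mark both for degradation before S phase.

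E2F sites in the promoters show what several members share in sequence, a property that the choice of genes by symbol did not use. RefSeq windows of 300 bases (250 before and 50 after the annotated start, build GRCm38.p6) were available for 34 members, and Mcm4, Gins1, Gins2, Gins4, Pole, Rfc2 and Ccne2 had no entry. The windows were searched on both strands for TTTCGCGC, TTTGGCGC, TTTCCCGC and TTTGCCGC, forms of the E2F site, and for CCAAT, the site of the NF-Y factor. An E2F form was present for 14 of the 34 members (41.2%), against 704 of 27025 genes with a window (2.6%) and 475 of the 9850 that also passed the expression filter below (4.82%). CCAAT was present for 21 of 34 members (61.8%), against 41.1% of all genes with a window. Member windows had a median GC content of 59.2%, against 52.7% over all windows. Printed here are the stretches from 170 bases to 1 base before the start of the 4 members with an E2F form in that stretch and at most 1 base of annotated exon: a pair of helicase subunits, a helicase loader and a polymerase subunit. Capitals mark E2F forms (8 letters, or 12 where forms on opposite strands overlap) and CCAAT or its reverse complement (5 letters), 5′ to 3′ on the gene's strand.
Mcm5, chr8:75109339-75109508, plus strand: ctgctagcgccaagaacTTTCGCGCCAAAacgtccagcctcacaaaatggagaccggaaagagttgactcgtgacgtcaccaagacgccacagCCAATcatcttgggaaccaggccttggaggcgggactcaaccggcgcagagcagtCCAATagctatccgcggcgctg
Mcm6, chr1:128359706-128359875, minus strand: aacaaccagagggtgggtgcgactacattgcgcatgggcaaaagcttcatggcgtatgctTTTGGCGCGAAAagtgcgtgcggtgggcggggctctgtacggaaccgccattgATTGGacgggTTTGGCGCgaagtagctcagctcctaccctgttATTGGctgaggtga
Cdc6, chr11:98907981-98908150, plus strand: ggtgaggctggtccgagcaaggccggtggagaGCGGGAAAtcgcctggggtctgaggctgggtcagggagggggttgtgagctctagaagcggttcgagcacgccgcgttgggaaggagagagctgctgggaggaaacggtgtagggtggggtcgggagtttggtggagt
Pola1, chrX:93632156-93632325, minus strand: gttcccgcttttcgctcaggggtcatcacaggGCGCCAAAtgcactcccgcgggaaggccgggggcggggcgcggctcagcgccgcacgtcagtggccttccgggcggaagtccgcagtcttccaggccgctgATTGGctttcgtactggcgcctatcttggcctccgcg
In Mcm5 and in Mcm6 TTTCGCGC and TTTGGCGC overlap on opposite strands, which makes the 12-letter run, and Mcm6 has a separate TTTGGCGC that starts 47 bases before the transcription start. An E2F form and a CCAAT shared bases in the window of Mcm7. These matches are letters in a window and not measured binding.

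As a whole the module was somewhat higher in the Dyrk2-KO library. In bulk tissue, fewer cells of a type and less RNA per cell cannot be told apart. All 41 members passed the filter of at least 1 FPKM (the fragment count divided by exon length and by library size) in at least 1 library, and all 41 had a log2 ratio of Dyrk2-KO over WT above 0 with 0.5 FPKM added to both, although Ccne1 was so close to level that it turned below 0 when the libraries were scaled by a trimmed mean. Among all 14000 genes past the filter 45.7% were above 0, and among the 9363 of them with as many fragments as the members (586 to 13219 in both libraries together) 48.1%. The median log2 ratio was 0.14 for the members and -0.02 for all genes past the filter. Without the addition the smallest difference was 0.233% (Ccne1) and the largest 26.5% (Chaf1b): 2 members (Mcm4 and Chaf1b) were at least 1.2-fold higher with the addition, as were 7.27% of all genes, and none was 1.5-fold higher or lower, against 2.06% and 4.56% of all genes. The count at 1.2-fold was 4 with upper-quartile scaling and 6 with the median of all genes set to 0. The counting interval of the ratio lay above 1 for 24 members, held 1 for 17 and lay below 1 for none, while over all genes it lay above 1 for 17.7% and below 1 for 22.3%. Narrow intervals need many fragments, and over the 9363 genes in the fragment range of the members 20.3% lay above 1 and 23.0% below. Summed over the members, 0.475% of all fragments in the Dyrk2-KO library and 0.421% in the WT library came from these genes, a 13.0% higher share (ratio 1.13, 1.12 to 1.14).

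**Figure D1:**
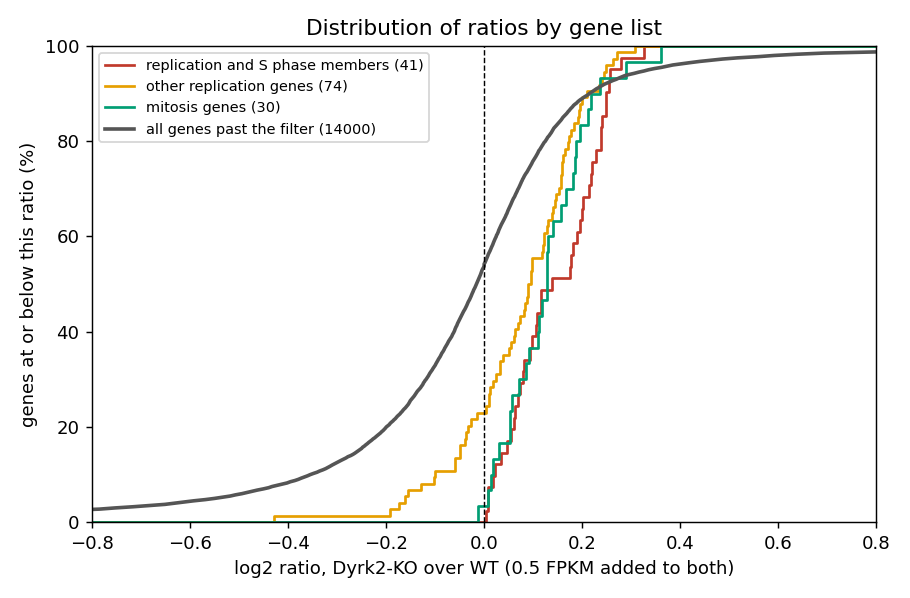
Cumulative share of genes (vertical, percent) at or below each log2 ratio of Dyrk2-KO over WT (horizontal, 0.5 FPKM added), for the 41 members, 74 other replication genes, 30 mitosis genes and all 14000 genes past the filter. The member curve starts at 0.00 and ends at 0.33, and lies to the right of the curve of all genes over most of its course; with trimmed-mean scaling 1 member, Ccne1, falls just below 0.

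The libraries were of like depth, with about 20122000 counted fragments for Dyrk2-KO and 20046000 for WT, recovered from the steps of the FPKM values. Dyrk2 measured 1.93 FPKM in the Dyrk2-KO library and 11.5 FPKM in the WT library, a ratio of 0.168 (0.146 to 0.192). All 10 markers of Rathke's pouch were detected, between 5.52 and 227 FPKM in Dyrk2-KO and between 8.61 and 250 FPKM in WT, and 3 of the 10 had log2 ratios above 0. Markers of other cells differed between the libraries as well. Erythroid markers summed to 1788 FPKM in Dyrk2-KO and 2326 FPKM in WT, with 0 of 6 past the filter above level. Mesenchyme markers summed to 127 FPKM in Dyrk2-KO and 211 FPKM in WT, with 1 of 7 above level, and endocrine markers to 71.0 and 351 FPKM in the same order, with 1 of 5 above level. Endothelial markers summed to 77.7 FPKM in Dyrk2-KO and 69.1 FPKM in WT (5 of 6 above level), and neuronal markers to 46.6 FPKM in Dyrk2-KO and 35.3 FPKM in WT (6 of 6). Macrophage markers summed to 10.8 FPKM in Dyrk2-KO and 10.9 FPKM in WT (2 of 3 past the filter above level, both with intervals that held 1). Their summed fragments had a ratio of 0.854 (0.770 to 0.946), and Csf1r alone 0.704 (0.607 to 0.816). No marker of these lists was at 0 in either library. The part of these shifts in the ratios of replication genes was not tested.

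Of the 10 origin licensing genes 6 had an interval above 1, against 20.3% of genes in the fragment range of the members. The 6 were the subunits of the MCM helicase ring, and the median log2 ratio of the group was 0.19. Mcm6 measured 73.3 FPKM in Dyrk2-KO and 61.6 FPKM in WT, which is 18.9% higher (14.8% to 23.2%). Mcm5 measured 66.9 FPKM in Dyrk2-KO and 56.3 FPKM in WT (18.9% higher, 14.3% to 23.8%), and Mcm3 63.0 and 52.7 FPKM in the same order (19.6% higher, 14.6% to 24.8%). Mcm4 had the largest ratio of the ring, at 57.5 FPKM in Dyrk2-KO and 47.3 FPKM in WT (21.7% higher, 16.2% to 27.3%). The smallest belonged to Mcm7, at 63.0 FPKM in Dyrk2-KO and 57.2 FPKM in WT (10.1% higher, 6.02% to 14.4%), and to Mcm2, at 42.2 FPKM in Dyrk2-KO and 37.2 FPKM in WT (13.6% higher, 9.42% to 17.9%). Thus every ring subunit was higher in the Dyrk2-KO library beyond counting error, and the ring as a sum was 16.8% higher (14.9% to 18.7%). Without these subunits the other 35 members had a median log2 ratio of 0.11, and 18 of them had an interval above 1.

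None of the 4 genes that mark origins or load the ring had an interval that excluded 1. Most genes in the fragment range of the members held 1 as well, with 20.3% above 1 and 23.0% below. Cdt1, a loader destroyed in S phase, measured 24.4 FPKM in Dyrk2-KO and 23.4 FPKM in WT (3.94% higher, -3.28% to 11.7%). Orc6, a subunit of the origin recognition complex, measured 26.2 FPKM in Dyrk2-KO and 25.1 FPKM in WT (4.43% higher, -3.45% to 13.0%). Cdc6, the ATPase that recruits the ring with Cdt1, measured 6.69 FPKM in Dyrk2-KO and 6.18 FPKM in WT (8.23% higher, -2.86% to 20.6%). Orc1, the largest subunit of the complex, was the least abundant member in both libraries, at 4.52 FPKM in Dyrk2-KO and 3.87 FPKM in WT (16.6% higher, -1.20% to 37.7%). With 316 fragments in Dyrk2-KO and 270 in WT, the interval of Orc1 was too wide to separate level from a ratio such as that of Mcm6. The same held for Cdc6, with 704 and 648 fragments in the same order. The intervals of Cdt1 and Orc6 held the ratio of Mcm7 (10.1% higher). All 4 genes had fewer fragments than the ring subunits. The upper limits for Cdt1 and Orc6 lay below the lower limit of the ring as a sum (14.9%). They also lay below those of Mcm3, Mcm4, Mcm5 and Mcm6, but not below those of Mcm2 and Mcm7. The intervals of Orc1 and Cdc6 overlapped that of the ring as a sum, so they do not set these genes apart from it.

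**Figure D2:**
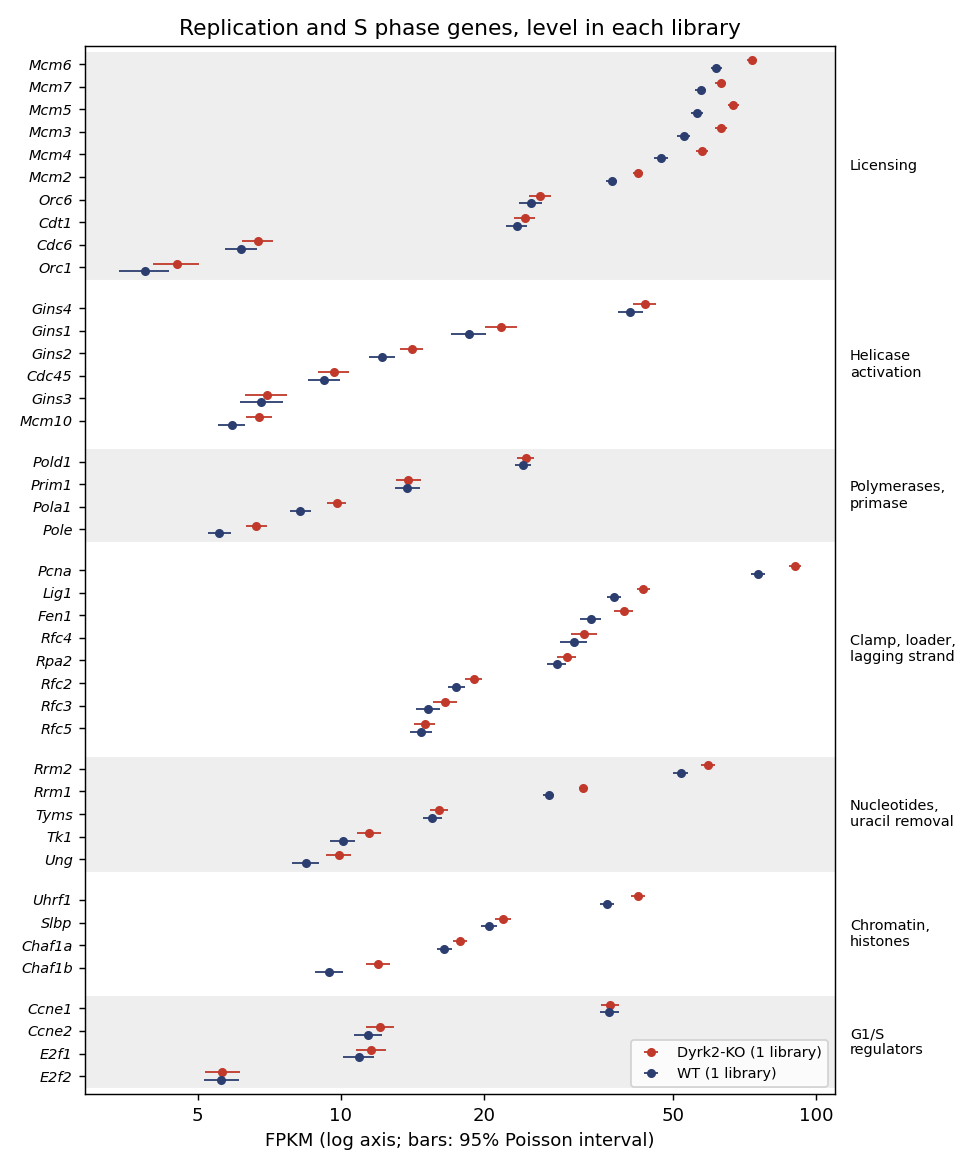
Level of each of the 41 members in FPKM (horizontal, log axis) in the Dyrk2-KO library (red, upper point of each pair) and in the WT library (blue, lower point), grouped by role, with 95% Poisson intervals. The members span 4.52 to 90.2 FPKM in Dyrk2-KO and 3.87 to 75.5 FPKM in WT, with Orc1 lowest and Pcna highest in both.

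How level the ring subunits were with each other depended on the length that their fragments were divided by. FPKM divides by all annotated exons of a gene, and on that scale the ring ran between 42.2 and 73.3 FPKM in Dyrk2-KO and between 37.2 and 61.6 FPKM in WT, with Mcm2 lowest in both. The exon length of Mcm2, 6956 bases, is more than that of its annotated principal transcript, 3371 bases. The same fragments, counted over all annotated exons, were also divided by the principal length alone. Fragments from other exons stay in that count, so the values are upper limits where the lengths differ. For Mcm4 both lengths are 3589 bases. Mcm2 then stood at 87.1 in Dyrk2-KO and 76.7 in WT. Mcm4 was lowest at 57.5 in Dyrk2-KO and 47.3 in WT, and Mcm6 stayed highest at 118 and 98.8 in the same order. The highest subunit exceeded the lowest 2.04-fold in Dyrk2-KO and 2.09-fold in WT on this scale, so the spread within the ring was much the same in both libraries. Ratios between the libraries do not depend on the length.

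**Figure D3:**
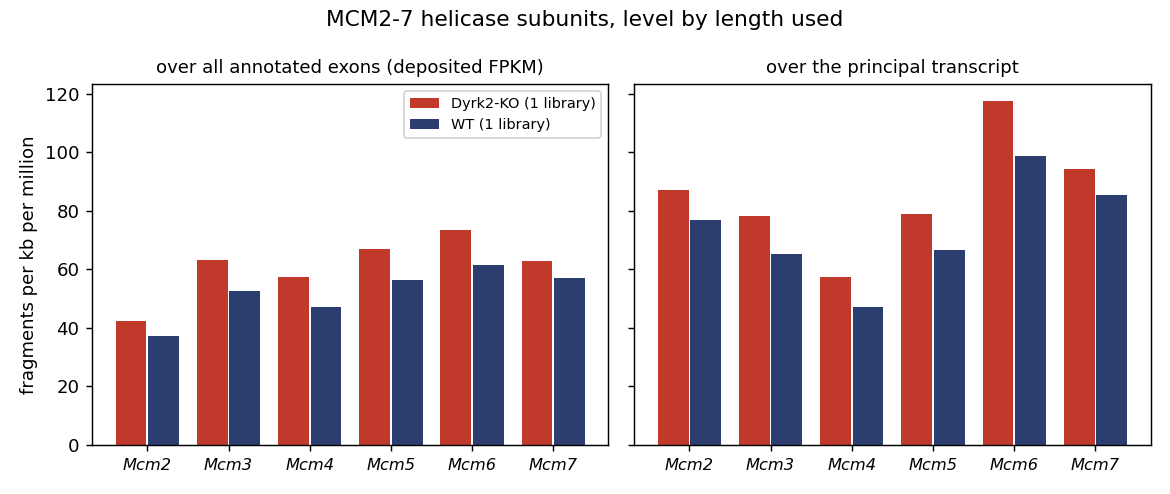
Level of the 6 MCM ring subunits (FPKM, vertical, from 0) in the Dyrk2-KO library (red, left bar) and the WT library (blue, right bar). Fragments of all annotated exons are divided by the length of all exons (left panel) or of the principal transcript alone (right panel, an upper limit). Each subunit is higher in Dyrk2-KO, and the lowest subunit is Mcm2 with the length of all exons but Mcm4 with the principal length.

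Of the 6 helicase activation genes 3 had an interval above 1, against 20.3% of genes in the fragment range of the members. Their median log2 ratio was 0.14. The intervals of all 6 overlapped each other, so they do not set these genes apart. Gins1, of the GINS complex that rides with the ring, measured 21.7 FPKM in Dyrk2-KO and 18.6 FPKM in WT (16.9% higher, 4.34% to 31.0%). Its partner Gins2 measured 14.1 FPKM in Dyrk2-KO and 12.2 FPKM in WT (15.2% higher, 5.77% to 25.5%). The other subunits lay closer to level, with Gins4 at 43.6 FPKM in Dyrk2-KO and 40.7 FPKM in WT (7.05% higher, -1.47% to 16.3%) and Gins3 at 6.99 FPKM in Dyrk2-KO and 6.81 FPKM in WT (2.59% higher, -11.3% to 18.7%). Mcm10, a factor needed to start unwinding, measured 6.73 FPKM in Dyrk2-KO and 5.90 FPKM in WT (14.1% higher, 4.27% to 24.8%). Cdc45, the remaining part of the active helicase, measured 9.66 FPKM in Dyrk2-KO and 9.23 FPKM in WT (4.54% higher, -6.26% to 16.6%). Of the exon bases of Gins2, 67.3% are shared with the opposite-strand gene Gse1, at 15.8 FPKM in Dyrk2-KO and 16.7 FPKM in WT, and whether counting used strand is not stated in the labels.

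The polymerase and primase genes formed a higher pair and a pair near level, with a median log2 ratio of 0.13. Pola1, the catalytic subunit of the priming polymerase alpha, measured 9.80 FPKM in Dyrk2-KO and 8.23 FPKM in WT (19.1% higher, 11.0% to 27.8%). Pole, the catalytic subunit of the leading-strand polymerase, measured 6.65 FPKM in Dyrk2-KO and 5.56 FPKM in WT (19.6% higher, 10.8% to 29.0%). Both intervals lay above 1, against 20.3% of genes in the fragment range of the members. Prim1, the primase subunit that works in the same complex as Pola1, measured 13.9 FPKM in Dyrk2-KO and 13.8 FPKM in WT (0.555% higher, -7.68% to 9.53%), and Pold1, the catalytic subunit of the lagging-strand polymerase, 24.5 and 24.2 FPKM in the same order (1.27% higher, -4.37% to 7.24%). The upper limits for Prim1 and Pold1 lay below the lower limits for Pola1 and Pole.

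Among genes of the sliding clamp, its loader and the lagging strand, 5 of 8 intervals lay above 1. Of genes in the fragment range of the members 20.3% had such an interval. The median log2 ratio of the group was 0.12. Pcna, the clamp that tethers polymerases to DNA, was the most abundant member in both libraries, at 90.2 FPKM in Dyrk2-KO and 75.5 FPKM in WT (19.4% higher, 14.3% to 24.9%). A processed copy, Pcna-ps2, measured 3.63 FPKM in Dyrk2-KO and 2.36 FPKM in WT, and fragments that fit both copies may have been assigned to either. Fen1, the nuclease that trims Okazaki fragments, measured 39.4 FPKM in Dyrk2-KO and 33.6 FPKM in WT (17.4% higher, 9.80% to 25.4%); an antisense gene, Gm10143, covers 78.8% of its exon bases but measured 0.01 FPKM in Dyrk2-KO and 0.03 FPKM in WT. Lig1, the ligase that joins them, measured 43.3 FPKM in Dyrk2-KO and 37.6 FPKM in WT (15.2% higher, 9.89% to 20.8%). The intervals of Pcna, Fen1 and Lig1 thus lay above 1 and overlapped each other, while the upper limit for Pold1, a polymerase that the clamp tethers, was below the lower limit for Pcna. The loader subunits, which open the clamp, had smaller ratios, with intervals that overlapped that of Lig1 for all but Rfc5. Rfc2 measured 19.0 FPKM in Dyrk2-KO and 17.5 FPKM in WT (8.62% higher, 2.49% to 15.1%), and Rfc3 16.6 and 15.3 FPKM in the same order (8.64% higher, 0.0394% to 18.0%). Rfc4 measured 32.6 FPKM in Dyrk2-KO and 30.9 FPKM in WT (5.29% higher, -3.75% to 15.2%), and Rfc5 15.0 and 14.8 FPKM in the same order (1.64% higher, -5.69% to 9.54%). Opposite-strand genes share 12.7% of the exon bases of Rfc4 (Eif4a2, 43.8 FPKM in Dyrk2-KO and 58.0 FPKM in WT). They share 10.7% of those of Rfc5 (Wsb2, 14.1 and 15.2 FPKM) and 15.1% of those of Rfc2 (Lat2, 0.3 and 0.27 FPKM). Their part in the loader ratios was not tested. Rpa2, which coats single-stranded DNA, was also within counting error of level, at 29.9 FPKM in Dyrk2-KO and 28.5 FPKM in WT (5.05% higher, -1.74% to 12.3%).

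**Figure D4:**
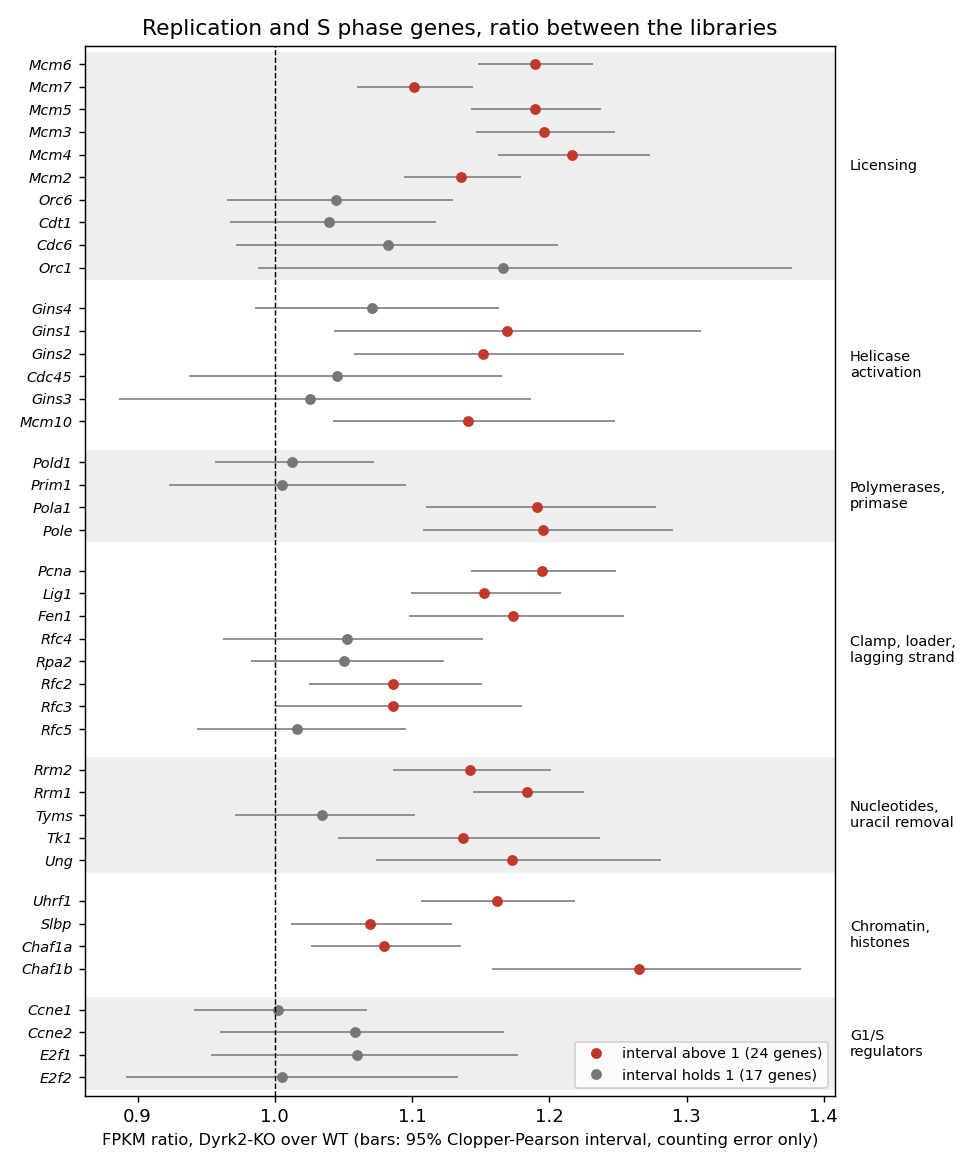
Ratio of FPKM in Dyrk2-KO over WT for each member (horizontal), grouped by role, with 95% Clopper-Pearson intervals for counting error only; red points have an interval above 1 (24 genes) and grey points one that holds 1 (17 genes). All points lie at or right of 1 on the deposited scale (Ccne1 turns below it with trimmed-mean scaling), and the 4 G1/S regulators at the bottom lie closest to it as a group.

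Of 5 genes of nucleotide supply and uracil removal 4 had an interval above 1, against 20.3% of genes in the fragment range of the members. The median log2 ratio of the 5 was 0.19. Ribonucleotide reductase, which makes deoxyribonucleotides, has a large subunit encoded by Rrm1, at 32.4 FPKM in Dyrk2-KO and 27.4 FPKM in WT (18.4% higher, 14.4% to 22.6%). Its S phase small subunit Rrm2 measured 59.3 FPKM in Dyrk2-KO and 51.9 FPKM in WT (14.2% higher, 8.63% to 20.1%). Tk1, the thymidine salvage kinase, measured 11.5 FPKM in Dyrk2-KO and 10.1 FPKM in WT (13.7% higher, 4.61% to 23.7%). Tyms, which makes thymidylate from scratch, was the exception at 16.1 FPKM in Dyrk2-KO and 15.6 FPKM in WT (3.45% higher, -2.91% to 10.2%). Ung, the glycosylase that removes uracil from DNA, measured 9.90 FPKM in Dyrk2-KO and 8.44 FPKM in WT (17.3% higher, 7.35% to 28.2%).

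All 4 genes of chromatin assembly and histone supply had an interval above 1, against 20.3% of genes in the fragment range of the members. Chaf1b, a subunit of the CAF-1 chaperone that places histones behind the fork, had the largest ratio of the module, at 11.98 FPKM in Dyrk2-KO and 9.46 FPKM in WT (26.5% higher, 15.8% to 38.3%). The large subunit Chaf1a measured 17.8 FPKM in Dyrk2-KO and 16.5 FPKM in WT (7.95% higher, 2.63% to 13.6%). Of its exon bases, 52.5% are shared with the opposite-strand gene Ubxn6, at 9.0 FPKM in Dyrk2-KO and 9.99 FPKM in WT. On the deposited values the intervals of the CAF-1 subunits did not overlap. Whether counting used strand is not stated in the labels, and the part of Ubxn6 in the ratio of Chaf1a was not tested. Uhrf1, which recruits the maintenance DNA methyltransferase, measured 42.2 FPKM in Dyrk2-KO and 36.3 FPKM in WT (16.2% higher, 10.7% to 21.9%). Slbp, which binds the stem-loop of histone mRNA, measured 22.0 FPKM in Dyrk2-KO and 20.5 FPKM in WT (6.91% higher, 1.21% to 12.9%).

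The regulators of the G1/S step were the group closest to level. Their median log2 ratio was 0.04, and their summed fragments were 2.39% higher (-2.00% to 6.97%). None of the 4 had an interval that excluded 1. Among genes in the fragment range of the members 20.3% lay above 1 and 23.0% below, so most held 1 as well. Ccne1, which encodes a cyclin that activates Cdk2 before S phase, measured 36.8 FPKM in both libraries (0.233% higher, -5.89% to 6.75%), and its relative Ccne2 12.1 FPKM in Dyrk2-KO and 11.4 FPKM in WT (5.85% higher, -4.01% to 16.7%). E2f1, an activator of the genes above, measured 11.6 FPKM in Dyrk2-KO and 10.9 FPKM in WT (5.98% higher, -4.62% to 17.8%). E2f2, another activator, measured 5.64 FPKM in Dyrk2-KO and 5.61 FPKM in WT (0.531% higher, -10.8% to 13.3%). At this depth the intervals of E2f1 and Ccne2 still held a ratio as large as that of Mcm2, while the upper limit for Ccne1 was below the lower limits of all ring subunits but Mcm7.

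Abundance and ratio were only weakly related. Across the 41 members log2 mean FPKM and log2 ratio correlated at r = 0.21 (rho = 0.22), and over all 8976 genes in the same FPKM range at r = 0.13 (rho = 0.17). These are correlations across genes, which share the same pair of libraries and are not replicates. The 17 members of at least 25 FPKM had a median log2 ratio of 0.20 and the 24 below it 0.11, while all genes in the members' FPKM range had 0.03 and -0.02 on the same sides of that limit. The order of levels within the module was nearly the same in both libraries, with rho = 0.997 between log2 FPKM in Dyrk2-KO and WT.

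Members with an E2F form in the promoter had a median log2 ratio of 0.17 (14 genes), and those with a window but none of the forms 0.10 (20 genes). Outside the members, other replication genes and mitosis genes, 442 genes past the filter carried an E2F form, of which 50.9% lay above 0, with a median log2 ratio of 0.01. The 9355 genes past the filter with a window and no E2F form, members left out, had a median of -0.02 and 45.5% above 0. The E2F forms were present for 18 of 59 other replication genes with a window (30.5%) and for 1 of 26 mitosis genes (3.85%).

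Replication genes outside the module leaned the same way with more exceptions. Of 74 such genes, all past the filter, 57 had log2 ratios above 0 and 17 below, with a median of 0.09. Above 0 were thus 77.0%, against 45.7% of all genes. The interval lay above 1 for 31 (41.9%, against 17.7% of all genes) and below 1 for 3 (4.05%, against 22.3%). Orc2, an origin recognition subunit, and Gmnn, which encodes the Cdt1 inhibitor geminin, were the 2 genes at least 1.2-fold higher. They were 2.70% of the list, against 7.27% of all genes. Orc2 measured 19.3 FPKM in Dyrk2-KO and 15.5 FPKM in WT, and Gmnn 35.8 and 29.6 FPKM in the same order. The 3 genes with an interval below 1 were Rrm2b, Rbl2 and Atrip. Rrm2b, the p53-induced small subunit of ribonucleotide reductase, measured 1.67 FPKM in Dyrk2-KO and 2.42 FPKM in WT, a ratio of 0.690 (0.595 to 0.80), opposite in direction to its S phase counterpart Rrm2. Rbl2, a retinoblastoma relative of resting cells, measured 5.07 FPKM in Dyrk2-KO and 5.78 FPKM in WT, and Atrip, a partner of the checkpoint kinase ATR, 3.14 and 3.66 FPKM in the same order. All 5 were picked by their values, Rrm2b by the rule that names the largest ratios of a list. The contrast of Rrm2b with Rrm2 is thus a selected one. The most abundant of the list were Dctpp1, a nucleotide-cleansing enzyme, at 84.0 FPKM in Dyrk2-KO and 75.2 FPKM in WT, Nasp, a histone chaperone, at 80.4 and 70.3 FPKM in the same order, Dut, which removes dUTP, at 63.7 and 57.5 FPKM, and the S phase cyclin Ccna2 at 57.9 and 53.3 FPKM.

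Intervals above 1 by role are read against 17.7% of all genes and 20.3% of genes in the fragment range of the members. The other genes of chromatin assembly had a median log2 ratio of 0.18 with 7 of 10 intervals above 1, and those of nucleotide supply 0.15 with 5 of 7. Origin firing factors had a median of 0.15 with 3 of 6, licensing 0.09 with 2 of 6, polymerase subunits 0.11 with 2 of 8, and fork proteins 0.06 with 4 of 14. The G1/S regulators of this list had 0.09 with 7 of 16, and checkpoint genes were closest to level at 0.02 with 1 of 7 above 1 and 1 below. The shares for polymerase subunits (25%), fork proteins (28.6%) and checkpoint genes (14.3%) were near those of all genes.

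Mitosis genes lay about as far above level as the replication module. Of 30 genes, 29 had log2 ratios above 0, with a median of 0.13, and Birc5, the one below, named here with its value known, measured 24.3 FPKM in Dyrk2-KO and 24.6 FPKM in WT. The interval lay above 1 for 22 and below 1 for none. Among all genes past the filter 45.7% were above 0, 17.7% had an interval above 1 and 22.3% had one below 1. Mki67, the proliferation antigen, measured 57.7 FPKM in Dyrk2-KO and 47.1 FPKM in WT (22.5% higher, 19.2% to 25.8%), Top2a, which untangles chromosomes, 68.5 and 58.1 FPKM in the same order (18.0% higher, 14.9% to 21.1%), and Nuf2, a kinetochore protein, 11.4 and 8.76 FPKM (30.1% higher, 20.2% to 40.7%). Cdc20, an activator of the anaphase-promoting complex, measured 79.0 FPKM in Dyrk2-KO and 70.8 FPKM in WT, and the mitotic cyclin gene Ccnb2 57.4 and 55.3 FPKM in the same order. Both lists come from the same pair of libraries, so the 1 list is not independent support for the other.

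Genes that set the pace of G1 differed in both directions, with log2 ratios between -0.42 and 0.49, against 0.00 to 0.33 for the members. Of the 10 CDK inhibitors and D-type cyclins 8 passed the filter, with 3 intervals above 1 (37.5%, against 17.7% of all genes) and 2 below (25%, against 22.3%), so the share below was near that of all genes. Ccnd1, which encodes cyclin D1, measured 163 FPKM in Dyrk2-KO and 116 FPKM in WT (40.2% higher, 36.8% to 43.7%), and Ccnd2 73.9 and 57.9 FPKM in the same order (27.6% higher, 24.4% to 30.9%), while Ccnd3 was close to level at 31.1 FPKM in Dyrk2-KO and 31.8 FPKM in WT. Of the inhibitors of cyclin-CDK complexes, Cdkn1b measured 13.5 FPKM in Dyrk2-KO and 17.9 FPKM in WT (ratio 0.753, 0.699 to 0.812) and Cdkn1a 2.06 and 2.93 FPKM in the same order (ratio 0.701, 0.564 to 0.869). Cdkn1c went the other way, at 1028 FPKM in Dyrk2-KO and 830 FPKM in WT (23.9% higher, 22.1% to 25.7%).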

How the data were processed

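RNA of E12.5 mouse pituitaries was measured in 1 Dyrk2-KO and 1 WT library, grouped by the genotype label; total RNA was polyA-selected and made into stranded libraries, per the labels' protocols. The authors deposited FPKM per Ensembl gene with the summed exon length, rounded to 2 decimals. Per the submitters' processing notes, reads were handled with cutadapt 1.9.1 and HISAT2 2.0.1 on build GRCm38; how fragments were counted, with or without strand, and on which annotation, is not given in the sources here. Symbols came from GENCODE M21 (55141 of 55401 genes matched), whose merged exon length equals the deposited one for 99.0% of matched genes.

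Library totals were recovered as the number that brings FPKM times exon length closest to whole fragments. Of the low values checked (at most 100 fragments), all 1369 in Dyrk2-KO and all 1512 in WT came out whole within 0.1 fragment. From these fragments came exact 95% Poisson intervals of FPKM and exact 95% Clopper-Pearson intervals of ratios. Reads without molecular identifiers are not independent molecules, so intervals cover counting error only. Log2 ratios (Dyrk2-KO over WT) had 0.5 FPKM added to both, which understates differences of low genes; percentages and ratios of single genes are plain, and the fold thresholds for members use the addition. The filter, 1 FPKM or more in either library, kept 14000 genes. No count model and no test was used. The steps were tested on simulated data.

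Members, lists and thresholds were chosen with earlier results of these data known. All members were named; of the other lists, the 4 most abundant genes and up to 4 with the largest ratio each way of at least 1.25-fold, beside genes said to be chosen otherwise. Exons of 15 members overlap an opposite-strand gene, and those of Mcm7 also hold 2 microRNA genes. Alternatives were pseudocounts, filters and scalings. Python 3.11.15, numpy 2.4.6, pandas 2.3.3 and scipy 1.17.1 were used.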

Additional observations from a re-analysis of the deposited data

How the results depend on the processing

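The alternatives were pseudocounts of 0.1 and 2 FPKM, a filter of 5 FPKM or none, and scalings by a trimmed mean of log ratios, by the upper quartile and by totals without mitochondrial and haemoglobin genes. Scalings that set the median log2 ratio of all genes past the filter, or of genes in the members' FPKM range, to 0, and a pseudocount of 0, were added after the data were examined. The scalings multiplied the Dyrk2-KO library by 0.997 to 1.01. Each of the 41 member ratios stayed within its counting interval under every pseudocount and scaling, and 40 instead of 41 lay above 0 with the trimmed mean, where Ccne1 turned. The filter of 5 FPKM left out Orc1. The count of intervals above 1 was 23 or 24 under the scalings. Members at least 1.2-fold higher numbered 4 with upper-quartile scaling and 6 with the median of all genes set to 0, against 2 as deposited. The median log2 ratio of the CDK inhibitors and D-type cyclins was -0.02, but 0.15 with the filter of 5 FPKM and 0.13 with none, so it has no stable sign; here the set of genes tested differs. No paired analysis was possible because each genotype has 1 library, which also leaves no replicate to leave out. Depth limits the least abundant members most: 1 fragment on a 1 kb gene equals 0.0497 FPKM in Dyrk2-KO and 0.0499 FPKM in WT.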

Other observations

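Histone genes of the replication-dependent clusters, taken by symbol, were divided in direction much as all genes were. Their transcripts mostly end in a stem-loop in place of a polyA tail, so polyA selection recovers few of them. Of 70 annotated genes with cluster symbols, among them the pseudogene Hist3h2bb-ps, 24 passed the filter, with 11 log2 ratios above 0, 12 below and a median of -0.00. The share above 0 was 45.8%, near the 45.7% of all genes past the filter. The interval lay above 1 for 2 of the 24 and below 1 for 6, against 17.7% and 22.3% of all genes. Summed over the 70 genes, they measured 258 FPKM in Dyrk2-KO and 272 FPKM in WT. The most abundant, Hist3h2ba, measured 77.0 FPKM in Dyrk2-KO and 91.2 FPKM in WT, and the H2A gene Hist1h2ao 57.2 and 57.4 FPKM in the same order. The linker histone gene Hist1h1c was lower, at 10.4 FPKM in Dyrk2-KO and 13.3 FPKM in WT, while the H4 gene Hist1h4i measured 26.1 FPKM in Dyrk2-KO and 22.2 FPKM in WT. These genes were chosen after their values were seen, and near-identical copies make the counts of single histone genes uncertain.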
